A study of Mus musculus with 3 samples.

Results

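The genes described here are 40 nucleolar ribosome biogenesis genes, named in a fixed list by their symbols and all found among the 54838 genes of the count tables. They were examined in spatial transcriptomes of thymus from 2 *Trp53*-/- (KO) mice and 1 wild-type (WT, *Trp53*+/+) mouse, all female C57BL/6 animals perfused with PBS under pentobarbital before the thymus was embedded in OCT compound and frozen. Section KO1134 came from a KO mouse aged 17 weeks, section KO1308 from a KO mouse aged 21 weeks and section WT1101 from a WT mouse aged 17 weeks. The KO genotype is that of the whole animal and not of 1 cell type, and each section is 1 animal. By the study's methods the tissue was permeabilised for longer in KO than in WT sections, and the older mouse was a KO mouse, so genotype, permeabilisation and part of the age difference cannot be told apart.

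Ribosomes are assembled in the nucleolus. RNA polymerase I transcribes the precursor of ribosomal RNA there, small nucleolar ribonucleoproteins (snoRNPs) guide its chemical modification, and large sets of processing factors fold and cut it while ribosomal proteins join the small and the large subunit. The transcription factor MYC is known to bind many genes of this pathway at the E-box CACGTG, and demand for new ribosomes is known to be high in dividing thymocytes of the outer cortex. The 79 ribosomal protein genes encode the proteins of the finished ribosome and are a separate list from the 40 members.

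The E-box sites near the start of members are shown first, because *Myc* differed between the sections. The window searched ran from 250 bases before to 50 bases after each gene's start in RefSeq (build GRCm38.p6), and 34 of the 40 members had one. The letters CACGTG, which read the same on both strands, were found in 6 of the 34 (17.6%) and in 15 of 69 other nucleolar genes (21.7%). They were found in 6 of 58 ribosomal protein genes (10.3%) and in 8.09% of all 27025 genes with a window. The capitals mark the motif in up to 12 flanking bases on either side, written 5′ to 3′ along the gene's own strand.
Nop2 (large subunit methyltransferase), chr6:125131811-125131840, plus strand: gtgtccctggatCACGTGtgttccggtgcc
Pes1 (large subunit processing), chr11:3963965-3963994, plus strand: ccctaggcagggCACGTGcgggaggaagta
Mybbp1a (MYB binding protein), chr11:72441355-72441376, plus strand: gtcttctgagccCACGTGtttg
Utp4 (small subunit processing), chr8:106893643-106893672, plus strand: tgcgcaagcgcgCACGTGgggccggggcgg
Utp20 (small subunit processing), chr10:88826765-88826789, minus strand: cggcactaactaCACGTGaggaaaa
Wdr43 (small subunit processing), chr17:71616220-71616249, plus strand: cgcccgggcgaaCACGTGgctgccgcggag
The motif lay upstream of the start in *Nop2*, at position -60, and from position 3 to position 41 downstream of it in the other 5 genes.

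UMI counts per spot were summed into square bins of 27 µm. A bin was kept if it held 300 genes or more, had no more than 30% of its UMIs from mitochondrial genes and lay in connected tissue. The deposited counts held 31237062 UMIs in KO1134, 21089885 in KO1308 and 41581477 in WT1101. Kept tissue comprised 12009, 16140 and 27104 bins with a mean of 2591, 1090 and 1497 UMIs per bin, and at least 1 UMI of a member was found in 97.5%, 90.5% and 94.6% of them. Mitochondrial genes took 1.79%, 2.17% and 0.805% of the UMIs of kept tissue. The lists of spot names shared 238875 entries over the 3 sections. Levels are given as UMIs per 1000000 UMIs (CPM) summed over thymic T bins. Those are bins of the thymus area in which any of the CD3 genes *Cd3d*, *Cd3e* and *Cd3g* passed a limit of 2, after each bin was scaled to 10000 UMIs, 1 was added and natural logs were taken. The 2720, 5727 and 15865 thymic T bins held 6992118, 6303556 and 25531656 UMIs. Intervals in brackets are exact 95% intervals of counting error only, and the spread between mice is seen only in how far apart the KO sections lie. A bin holds several cells, and fewer cells of a type and less RNA per cell cannot be told apart in a bin.

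The targeted gene was checked first. *Trp53* had 15.9 CPM in KO1134 and 22.8 CPM in KO1308 against 80.1 CPM in WT1101, so both KO sections lay below the WT section but held 111 and 144 UMIs of the gene. Which part of the gene the KO allele lacks was not analysed here, so whether these UMIs come from outside it was not tested. The markers that define thymus were detected in the 3 sections but not at like levels. The summed level of 6 thymus genes, of which *Cd8b1* had the highest level over the sections, was 701 CPM in KO1134, 1868 CPM in KO1308 and 2207 CPM in WT1101. *Cd8a* had 62.6 CPM on the cortex side of KO1134, defined further on, and 1976.5 CPM on that of WT1101. KO1134 therefore stood apart from the other sections in its thymocyte genes, and results that rest on it are given for each KO section.

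The 40 members together had nearly the same level in KO1134 and WT and a slightly higher one in KO1308. In thymic T bins they summed to 3936 CPM (3889.8 to 3983) in KO1134, 4390 CPM (4339 to 4442) in KO1308 and 3943 CPM (3918.3 to 3967.1) in WT1101. The ratio to WT was 0.998 (0.985 to 1.01) in KO1134 and 1.11 (1.10 to 1.13) in KO1308, with a mean of 1.06 ± 0.081 (SD, n = 2 KO sections). With library sizes scaled by TMM the ratios were 1.07 and 1.07, so the side on which KO1134 lay depended on the scaling. It also depended on the bins, with 0.936 in KO1134 for bins of 50 µm and 1.02 for bins of 20 µm. Of the thymic T bins of KO1134, 402 (14.8%) were lymph-node-like, with B cell genes in excess of thymus genes around them, against 1 in KO1308 and 0 in WT1101. Without them the ratio of KO1134 was 1.04. The median ratio of the 11257 genes with a mean of at least 10 CPM was 0.928 in KO1134 and 1.04 in KO1308, and relative to that median the members stood at 1.08 and 1.07.

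A single member moved the sum of KO1134. *Bysl*, which encodes bystin, a factor of small subunit maturation, had 130 CPM in KO1134, 515 CPM in KO1308 and 428 CPM in WT1101. Its ratio to WT was 0.305 (0.285 to 0.326) in KO1134 and 1.204 (1.16 to 1.25) in KO1308, so the KO sections lay on opposite sides of WT. *Bysl* lies on the minus strand of chromosome 17 from 47599331 to 47611492 (GRCm38, GENCODE M21) and shares 361 exonic bases with *Ccnd3* on the plus strand, the cyclin D3 gene of dividing thymocytes. *Ccnd3* had 157, 585 and 540.4 CPM in the same order of sections, and its ratios were 0.290 and 1.08. Whether the counting used the strand is not given in the sources used here, so reads of these genes cannot be told apart. Without *Bysl* the other 39 members had 3806, 3875 and 3515 CPM, and the ratios were 1.08 (1.07 to 1.10) and 1.10 (1.09 to 1.12).

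The ribosomal protein genes were highest in KO1134 and *Myc* in KO1308. Ribosomal protein genes took 16.1% of the UMIs in KO1134, 10.4% in KO1308 and 10.1% in WT1101, with ratios to WT of 1.60 and 1.03. All 79 of these genes were above WT in KO1134, with a median ratio of 1.53, and 34 of them in KO1308, with a median of 0.963. Of the 11257 genes tested, 4842 were above WT in KO1134 and 6110 in KO1308. There were 24.4 member UMIs for every 1000 ribosomal protein UMIs in KO1134, 42.3 in KO1308 and 39.2 in WT1101, so this quotient was 0.623 of the WT value in KO1134 and 1.08 times it in KO1308. It was 0.706 in KO1134 without the lymph-node-like bins. *Myc* had 66.4 CPM (60.5 to 72.7) in KO1134, 146 CPM (137 to 156) in KO1308 and 38.5 CPM (36.1 to 40.9) in WT1101. Its ratios of 1.73 and 3.80 were both above 1, and the mean ratio was 2.76 ± 1.47 (SD, n = 2). The members without *Bysl* were, like *Myc*, above WT in both KO sections. Their ratios of 1.08 and 1.10 had overlapping counting intervals, so no order of the KO sections is read from them. With *Bysl*, KO1134 and WT differed by less than their counting intervals. In the test across genes described below *Myc* was higher by 1.46 on the log2 scale (SE 0.53), with an unadjusted p of 0.0204 and an adjusted p of 0.469 by edgeR's quasi-likelihood test.

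**Figure D1:**
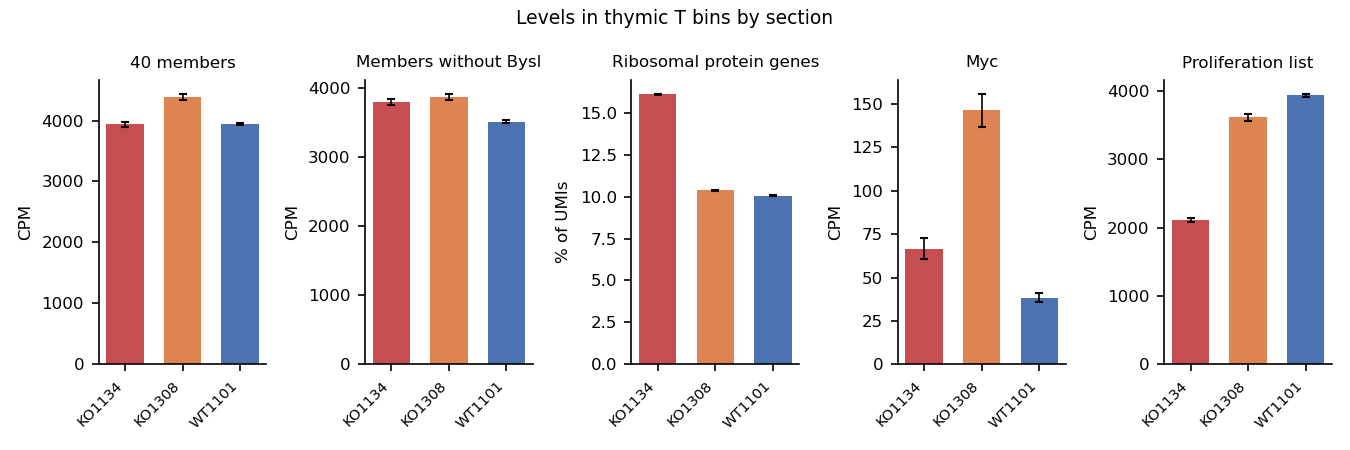
Summed levels in thymic T bins of each section for the 40 members, the 39 members without Bysl, the ribosomal protein genes, Myc and the proliferation list; bars are CPM or percent of UMIs and whiskers exact 95% counting intervals. The member sums stay between 3936 and 4390 CPM while the ribosomal protein share reaches 16.1% in KO1134 and Myc reaches 146 CPM in KO1308.

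Of the 40 members, all of which passed the filter of 10 CPM, 22 were above WT in both KO sections, 5 were below it in both and 13 lay on opposite sides. Among all genes tested, 33.4% were above WT in both KO sections and 36.1% below. The lower count depended on the scaling and the area, with 2 members below WT in both under TMM, under DESeq2 size factors or with ribosomal protein and mitochondrial genes out of the denominator, and 10 over all kept tissue, while the higher count was 23 and 21. The members' median ratio was 1.15 in KO1134 and 1.21 in KO1308. In KO1134, 8 members were at least 1.5-fold above WT (17.5% of all genes were) and 2 at least 1.5-fold below it (20.4% of all genes). In KO1308, 9 were at least 1.5-fold above (20.9% of all genes) and 2 at least 1.5-fold below (11.0% of all genes). *Polr1b*, *Nop14* and *Ddx21* were at least 1.5-fold above WT in both KO sections (3 members, 11.0% of all genes), and *Wdr12* was at least 1.5-fold below in both (1 member, 5.83% of all genes).

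The test between genotypes was edgeR's quasi-likelihood test on the UMI sums of the 3 sections, with 1 residual degree of freedom and the WT section assumed to vary like the KO sections. It called 8 of 11257 genes higher (0.0711%) and 2 lower (0.0178%) at an adjusted p of 0.05, and none of the 40 members. At an unadjusted p under 0.05 it called 1 member, *Wdr12*, and 8.71% of all genes. DESeq2 called 0 members at either threshold, and 1.28% of all genes at an adjusted p of 0.05 and 7.92% unadjusted. The member ratios that follow are descriptions of these sections. Among the members with the widest differences, *Polr1a* lies on chromosome 6 from 71909053 to 71984935, *Fbl* on chromosome 7 from 28169710 to 28179269, *Ddx21* on chromosome 10 from 62580251 to 62602281 and *Wdr12* on chromosome 1 from 60069785 to 60098645 (GRCm38, GENCODE M21).

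**Figure D2:**
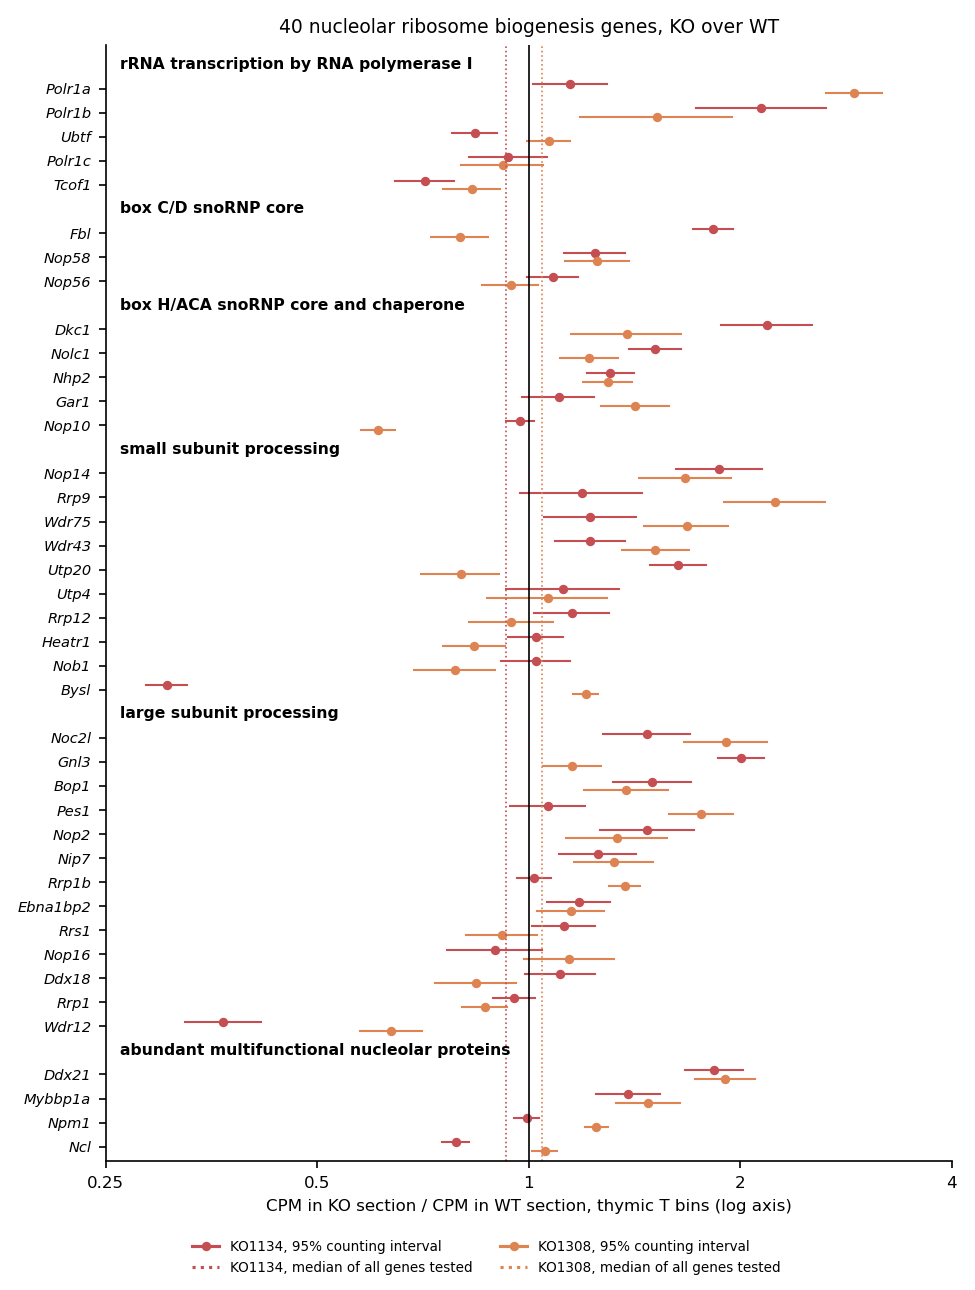
Ratio of CPM in each KO section to CPM in the WT section for the 40 members, grouped by role; points are ratios on a log axis, lines exact 95% counting intervals, and dotted lines the median ratio of all genes tested in each KO section. In 22 members both points lie to the right of 1, and Bysl, Fbl and Utp20 have points well to either side of it.

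The 5 members of ribosomal RNA transcription were divided. *Polr1a*, the largest subunit of RNA polymerase I, had 50.5 CPM in KO1134, 128 CPM in KO1308 and 44.1 CPM in WT1101, so the ratio of 2.90 (2.65 to 3.18) in KO1308 was far above that of 1.14 (1.01 to 1.29) in KO1134. *Tcof1*, which encodes treacle, a nucleolar scaffold for RNA polymerase I, had 72.9, 85.0 and 103 CPM and was below WT in both KO sections. Its ratios were 0.711 and 0.829. The second largest subunit gene *Polr1b*, named because it passed 1.5-fold in both KO sections, had 20.3, 14.4 and 9.48 CPM. Of the rest, *Polr1c*, a subunit shared with RNA polymerase III, was below WT in both sections at 0.935 and 0.917, and *Ubtf*, the upstream binding factor of ribosomal DNA, was split at 0.837 and 1.07. The group sum had ratios of 0.887 and 1.22, on opposite sides of WT.

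The core proteins of box C/D snoRNPs, which carry out 2′-O-methylation of ribosomal RNA, summed to 1.42 times WT in KO1134 and 0.953 in KO1308. *Fbl*, the methyltransferase fibrillarin, had 201 CPM in KO1134, 87.4 CPM in KO1308 and 110 CPM in WT1101. Its ratios of 1.83 (1.71 to 1.95) and 0.797 (0.726 to 0.874) put the KO sections on opposite sides of WT. *Nop56*, a scaffold protein of the same particles, had 105, 91.7 and 97.3 CPM and had ratios of 1.08 and 0.942, with intervals that included 1. *Nop58*, its partner, was 1.24 and 1.25 times WT, the 1 member of this group above WT in both sections.

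The core of box H/ACA snoRNPs, which convert uridine to pseudouridine, had 4 of 5 members above WT in both KO sections. *Dkc1*, the pseudouridine synthase dyskerin, had 41.2 CPM in KO1134, 26.0 CPM in KO1308 and 18.9 CPM in WT1101, ratios of 2.18 (1.88 to 2.53) and 1.38 (1.15 to 1.65). The core proteins *Nhp2* and *Gar1* were above WT in both sections, at 1.31 and 1.30 and at 1.10 and 1.42, as was the assembly chaperone *Nolc1* at 1.51 and 1.22. *Nop10*, a small core protein, had 357, 224 and 367 CPM and was the exception, with ratios of 0.972 and 0.610. *Nop10* made up 367 of the 606 CPM of the group in WT, and the group sum was 1.14 times WT in KO1134 and 0.882 in KO1308, although the median ratio of the 5 genes was 1.31 and 1.30.

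Among the 10 factors of small subunit processing, 5 were above WT in both KO sections, none was below in both and 5 were split. *Nop14*, a component of the small subunit processome, had 43.0 CPM in KO1134, 38.6 CPM in KO1308 and 23.1 CPM in WT1101, ratios of 1.87 (1.62 to 2.15) and 1.67 (1.43 to 1.94). *Utp20*, another processome component, had 95.3, 46.6 and 58.3 CPM, so that KO1134 was 1.63 times WT and KO1308 0.800. *Rrp9*, a U3 snoRNP protein, was 1.19 and 2.24 times WT, *Wdr75* 1.22 and 1.68, *Wdr43* 1.22 and 1.51 and *Utp4* 1.12 and 1.06 times. *Heatr1*, *Nob1* and *Rrp12* were split, with ratios from 0.785 to 1.15. *Bysl* made up 428 of the 806 CPM of the group in WT, and the group sum had ratios of 0.742 and 1.16.

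The 13 factors of large subunit processing had 8 members above WT in both KO sections and 2 below. *Noc2l*, a nucleolar protein of early pre-60S particles, had 39.0 CPM in KO1134, 50.6 CPM in KO1308 and 26.5 CPM in WT1101, ratios of 1.47 and 1.91. It shares 598 exonic bases with *Samd11* on the opposite strand, whose levels of 34.8, 49.3 and 26.6 CPM ran beside it, so these genes cannot be told apart either. *Wdr12*, a subunit of the PES1, BOP1 and WDR12 complex that matures the large subunit, had 39.6, 68.7 and 108 CPM. Its ratios of 0.368 (0.324 to 0.416) and 0.637 (0.575 to 0.706) had the lowest mean of the 40 members, and it was lower by 0.99 on the log2 scale (a value of -0.99, SE 0.43, unadjusted p = 0.0436, adjusted p = 0.553, edgeR). The other subunits of that complex lay above WT in both KO sections, *Pes1* with 48.3, 79.8 and 45.4 CPM and *Bop1* with 49.1, 45.1 and 32.7 CPM. *Wdr12* shares 61 exonic bases with *Carf*, which had 319, 125 and 168 CPM. *Gnl3*, the nucleolar GTPase nucleostemin, was 2.01 times WT in KO1134 and 1.15 times in KO1308. *Nop2*, *Nip7*, *Ebna1bp2* and *Rrp1b* were above WT in both sections with ratios from 1.02 to 1.48, *Rrp1* was below in both at 0.954 and 0.865, and *Nop16*, *Rrs1* and *Ddx18* were split. The group sum was 1.08 and 1.13 times WT.

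Among the 4 abundant multifunctional nucleolar proteins, *Ddx21* and *Mybbp1a* were above WT in both KO sections and *Ncl* and *Npm1* were split. *Ncl*, nucleolin, had 349 CPM in KO1134, 468 CPM in KO1308 and 444 CPM in WT1101, ratios of 0.787 (0.753 to 0.822) and 1.05 (1.01 to 1.10). *Npm1*, the histone and ribosomal protein chaperone nucleophosmin, had 428, 537 and 431 CPM, ratios of 0.993 and 1.25. *Ddx21*, an RNA helicase that associates with RNA polymerase I and snoRNAs, had 94.4, 97.9 and 51.4 CPM. Its ratios of 1.84 (1.67 to 2.02) and 1.90 (1.73 to 2.10) were close to each other and both above WT (log2 difference 0.93, SE 0.43, unadjusted p = 0.0576, adjusted p = 0.585, edgeR). *Mybbp1a* was 1.39 and 1.48 times WT.

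The 6 members with an E-box in the window had a median ratio of 1.30 in KO1134 and 1.41 in KO1308, and 5 of them were above WT in both KO sections. The 28 members with a window and no E-box had medians of 1.13 and 1.21, and 16 of them were above WT in both. The ranges of these sets overlapped, and the difference was not tested.

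The count was repeated for other nucleolar genes outside the list. Of 81 further genes of ribosomal RNA transcription and processing, 79 passed the filter, of which 35 were above WT in both KO sections, 20 below and 24 split, and their sum was 1.02 times WT in both. Of the genes with both KO sections on the same side of WT, *Nat10*, the ribosomal RNA acetyltransferase, had the highest mean of the KO ratios (1.79 and 2.24), with 25.3 CPM in KO1134, 31.7 CPM in KO1308 and 14.1 CPM in WT1101. Next by that mean, *Sdad1* had ratios of 1.96 and 1.73 and *Rcl1* ratios of 1.77 and 1.89. The lowest means of the KO ratios belonged to the RNA polymerase I initiation factors *Taf1b* (0.645 and 0.617) and *Rrn3* (0.725 and 0.650), and to *Nol7* (0.695 and 0.653). The edgeR test called none of the 79, nor any at an unadjusted p under 0.05, and DESeq2 called none at either threshold. The non-coding genes that host snoRNAs in their introns, such as *Gas5*, summed to 1862, 1915 and 1749 CPM in the order KO1134, KO1308 and WT1101, or 1.06 and 1.10 times WT.

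Within each section the members were higher in cortex than in medulla. Thymus area was split into a cortex side and a medulla side by the neighbouring amounts of cortical (*Prss16*, *Psmb11*, *Ccl25*, *Ctsl*) and medullary (*Ccl21a*, *Krt5*, *Krt14*, *Aire*) epithelial genes. The members had 4533 CPM on the cortex side and 3282 CPM on the medulla side of KO1134, 4776 and 3692 CPM in KO1308, and 4047 and 3686 CPM in WT1101. The cortex side was higher in the 3 sections, by 1.38-fold (1.36 to 1.40), 1.29-fold (1.27 to 1.32) and 1.10-fold, a mean of 1.26 ± 0.145 (SD, n = 3). Lymph-node-like bins, 14.8% of the thymic T bins of KO1134, were not left out of the sides. Their part in the contrast of KO1134, for members and for ribosomal protein genes, was not tested. Set beside WT, the KO cortex sides stood at 1.12 and 1.18 and the KO medulla sides at 0.891 and 1.00. Thymic bins without T cell signal, in which the 3 CD3 genes stayed under 1 on the same scale, had 3966, 4205 and 3787 CPM of members, in the order KO1134, KO1308 and WT1101.

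The direction was also counted gene by gene. Of the 40 members, 22 were higher on the cortex side in all 3 sections (28.2% of all genes were), and 1, *Polr1a*, was lower in all 3 (26.7% of all genes). The genes that were higher included *Fbl*, *Nop56*, *Nop58*, *Dkc1*, *Gnl3*, *Ncl* and *Npm1*. *Rrp1b*, an RRP1 family protein of large subunit processing, had 303 CPM on the cortex side and 149 CPM on the medulla side of KO1134, 395 and 212 CPM in KO1308, and 227 and 205 CPM in WT1101. Its contrast in KO1308 rested in large part on 1 area of that section. Without the left area described at the end, the sides of KO1308 had 275 and 199 CPM of *Rrp1b*, a ratio of 1.38 (1.28 to 1.49) in place of 1.87, and the member ratio there was 1.25 in place of 1.29. *Fbl* had 251 and 154 CPM in KO1134, 93.7 and 70.5 CPM in KO1308, and 113 and 101 CPM in WT1101. The ribosomal protein share did not follow in the KO sections. It was 14.3% on the cortex side and 16.6% on the medulla side of KO1134, and nearly equal at 10.7% and 10.6% in KO1308. In WT1101 it was higher on the cortex side, at 10.2% and 9.78%, a ratio of 1.05. Its cortex to medulla ratio in KO1308 was 1.00, and 0.947 without that area. *Myc* was 1.64 times as high on the cortex side in KO1134 but 0.859 and 0.881 times as high in KO1308 and WT1101.

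Outside the thymus area the members were lower in each section, at 2676 CPM in KO1134, 2738 CPM in KO1308 and 3098 CPM in WT1101. Of the members, 26 were higher inside than outside the thymus area in all 3 sections, against 38.8% of all genes. Lymph-node-like bins, in whose surroundings the UMIs of *Ms4a1*, *Cd79a* and *Cd79b* outnumbered those of the thymus genes and took at least their share in the section, were found in KO1134 (1865 bins) and KO1308 (439 bins) and in no bin of WT1101. There the members had 3001 CPM in KO1134 and 3707 CPM in KO1308, while ribosomal protein genes reached 20.7% and 16.0% of the UMIs. With distance from the thymus edge, members in KO1134 had 3495 CPM within 100 µm and 4438 CPM between 200 and 400 µm, where the ribosomal protein share was 17.2% and 13.9%. In WT1101 the same zones had 3841 and 4002 CPM of members and 12.1% and 9.32% of ribosomal protein genes, and in KO1308 4099 and 4412 CPM and 11.0% and 10.4%. Beyond 400 µm the members had 4455 CPM in KO1134, 4086 CPM in KO1308 (165 bins) and 4014 CPM in WT1101, and the ribosomal protein share was 13.6%, 11.4% and 8.92%, so the values of KO1308 there were close to those within 100 µm.

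**Figure D3:**
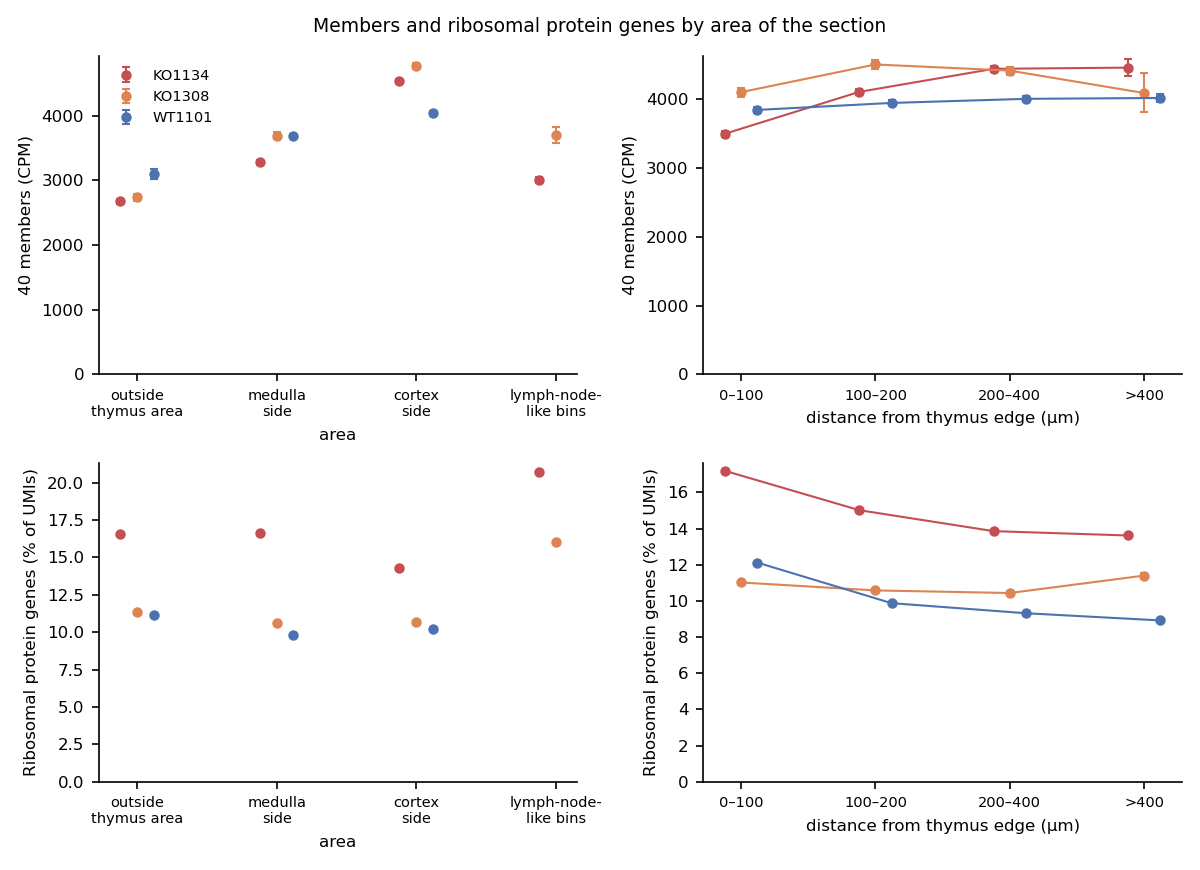
Members (upper panels, CPM) and ribosomal protein genes (lower panels, percent of UMIs) by area of the section (left) and by distance from the thymus edge (right); points are sums over bins of 1 section and whiskers exact 95% counting intervals. Members are higher on the cortex side than on the medulla side in each section. The lymph-node-like bins have the highest ribosomal protein share of their own section, 20.7% in KO1134 and 16.0% in KO1308.

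Markers of other cells differed between the KO sections and the WT section in the thymic T bins, of which 14.8% were lymph-node-like in KO1134. The 4 medullary epithelial genes were above WT in both KO sections and summed to 598 CPM in KO1134, 570 CPM in KO1308 and 123 CPM in WT1101, with *Ccl21a* the most abundant. The 3 B cell genes, led by *Cd79a*, were also above WT in both, at 196, 80.6 and 39.4 CPM. The 5 fibroblast genes, led by *Dcn*, were above in both, at 288, 273 and 115 CPM, as were the 5 adipocyte genes, led by *Fabp4*, at 383, 387 and 124 CPM. Of 4 plasma cell genes, led by *Igkc*, 3 were above in both, at 2870, 3862 and 1127 CPM, and of 6 myeloid genes, led by *Lyz2*, 4 were, at 1592, 810 and 627 CPM. None of these lists had a gene at 0 in any section. The 5 muscle genes had 27.5, 37.0 and 2.51 CPM, with *Myh6* at 0 in KO1134. The 5 erythroid genes had 26.0, 8.88 and 70.1 CPM, and 4 of them were below WT in both KO sections. *Malat1* and *Neat1*, RNAs retained in the nucleus, summed to 409, 532 and 595 CPM. The part of these cells and of RNA capture in the member levels was not tested.

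Within each section the members followed the proliferation list, 15 genes of DNA replication and mitosis such as *Mki67*, *Top2a* and *Pcna*. Thymus area was divided into tiles of 270 µm, 111 in KO1134, 171 in KO1308 and 298 in WT1101. Over tiles of 1 section, which share a library and differ in depth, Spearman's correlation of the member level with the proliferation level was 0.913, 0.778 and 0.705 in the same order. With the ribosomal protein share it was -0.351, 0.048 and 0.175, and with *Myc* 0.451, -0.104 and -0.025. A tile held a median of 15, 11 and 5 UMIs of *Myc*, against 893, 300 and 472.5 of the members, so nothing is read from the low values for *Myc*. Ribosomal protein UMIs are part of the denominator of the member level, and with ribosomal protein and mitochondrial genes out of it the correlation with the ribosomal protein share was -0.206, 0.151 and 0.418. In the 3 sections the member level also ran with total UMIs per tile (0.493, 0.404 and 0.449) and against the medullary epithelial genes (-0.725, -0.719 and -0.596). Tiles of KO1134 include lymph-node-like bins, which were not left out, and the part of those bins in its correlations was not tested. These values describe tiles and carry no test.

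Sorted by their proliferation level into 4 groups of like size, the tiles showed the size of the relation. From the lowest to the highest group the members went from 3102 to 4792 CPM in KO1134, from 3372 to 4861 CPM in KO1308 and from 3559 to 4232 CPM in WT1101. Over the same groups the ribosomal protein share went from 18.7% to 14.3% in KO1134, from 11.3% to 9.90% in KO1308 and from 9.37% to 10.8% in WT1101. The share in the lowest group of KO1134 lay near the 20.7% of its lymph-node-like bins, and what they contribute to that group was not tested. *Myc* went from 45.5 to 86.5 CPM in KO1134, from 159 to 126 CPM in KO1308 and from 46.9 to 39.8 CPM in WT1101. Between sections the order differed from that within them. The proliferation list was at 2113 CPM in KO1134, 3613 CPM in KO1308 and 3938 CPM in WT1101 in the thymic T bins, where the members had 3936, 4390 and 3943 CPM.

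**Figure D4:**
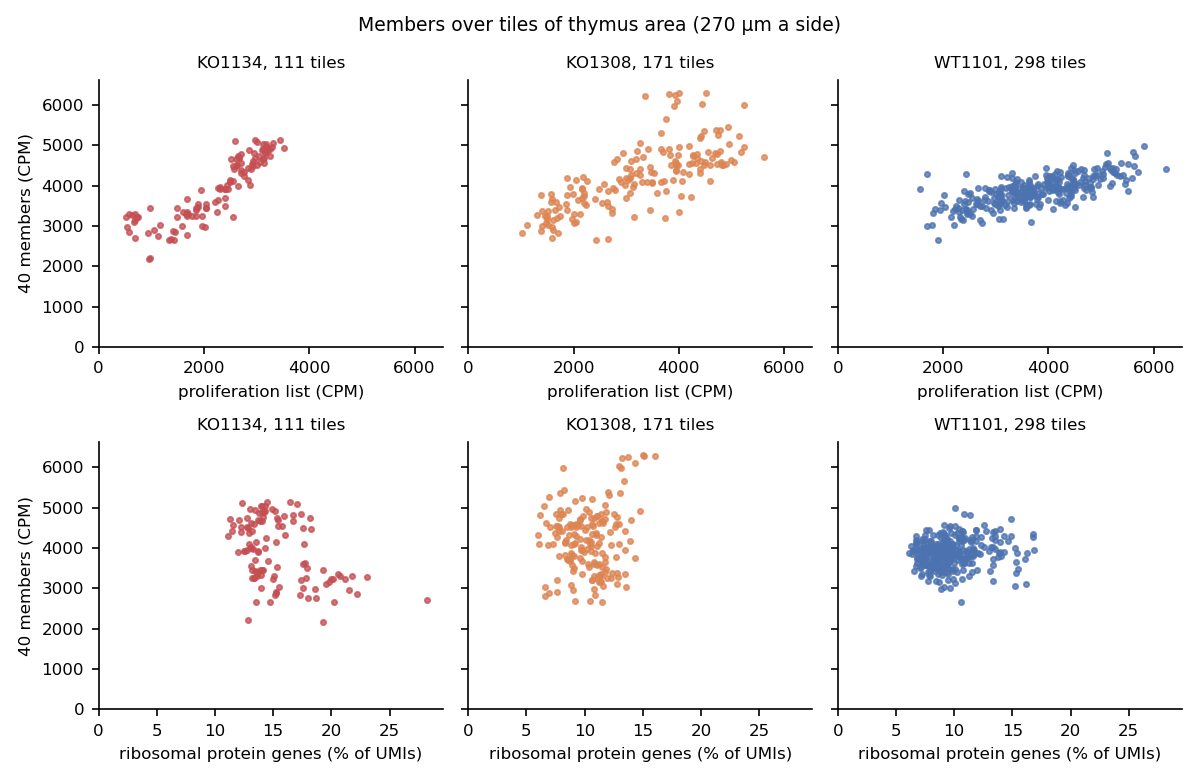
Member level (CPM) of each tile of thymus area against its proliferation level (upper panels, CPM) and its ribosomal protein share (lower panels, percent of UMIs), 1 column of panels per section and 1 point per tile. Tiles with more proliferation have more of the members in each section (Spearman 0.913, 0.778 and 0.705) and show no common direction against the ribosomal protein share (-0.351, 0.048 and 0.175).

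The genes outside the members and the ribosomal protein genes that ran most closely with the member level over tiles were, by mean Spearman correlation over the 3 sections, *Hmgb2* (0.743), *Stmn1* (0.742), *Tuba1b* (0.723), *Hmgb1* (0.722), *Snrpd1* (0.717), *Ptma* (0.716), *Dut* (0.713), *Top2a* (0.709), *Tubb5* (0.708) and *H2afz* (0.707). *Hmgb1* and *Hmgb2* encode chromatin proteins, *Stmn1*, *Tuba1b* and *Tubb5* microtubule proteins, and *Dut* and *Top2a* proteins of DNA replication. The members themselves differed in how far they ran with the rest of the list. By the mean over the sections, *Ncl* (0.698, 0.606 and 0.408 in the order KO1134, KO1308 and WT1101) and *Npm1* (0.634, 0.585 and 0.319) followed the other 39 members most closely, and *Polr1a* had the lowest mean (-0.161, -0.297 and -0.119). In KO1134 alone *Fbl* (0.794) and *Gnl3* (0.792) had the highest values. Members differ in their UMIs per tile, and the part of counting error in this order was not tested.

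One area of KO1308 stood out on the map of tiles and was described after its values had been seen, so no test was made. It comprised 15 tiles at the left end of the section, 1211 bins or 9.04% of its thymus area, of which 89.4% were on the cortex side. The members had 4666 to 6309 CPM in these tiles with a median of 5987 CPM, against 2662 to 5993 CPM and a median of 4112 CPM in the other tiles of KO1308. Of the 10 tiles with the highest member level in the section, 9 lay in this area. Depth was 1388 UMIs per bin there and 1137 in the other 6114 cortex-side bins of the section, with which it was then compared.

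In that area the sum of the members and that of the ribosomal protein genes were both high, and *Rrp1b* made up most of the members' excess. Members summed to 5559 CPM against 4578 CPM on the other cortex side, a ratio of 1.21 (1.19 to 1.24), and 33 of the 40 were higher there (40.3% of all genes were). Of these, 7 were at least 1.5-fold higher (7.94% of all genes). Since the area was chosen by the member level, these counts are a description. *Rrp1b* had 913 CPM in the area, 275 CPM on the other cortex side, 227 CPM on the WT cortex side and 303 CPM on that of KO1134. Without *Rrp1b* the members had 4646 against 4303 CPM, a ratio of 1.08 (1.05 to 1.11). *Nolc1*, a chaperone of snoRNP assembly, had 156 and 96.8 CPM, and *Npm1* 758 and 556 CPM, in the area and on the other cortex side. The 7 members that were lower included *Bysl* with 282 and 619 CPM, whose neighbour *Ccnd3* had 274 and 697 CPM, and 3 of the RNA polymerase I group, *Polr1a* (ratio 0.730), *Ubtf* (0.599) and *Tcof1* (0.830). That group summed to 347 against 449 CPM, a ratio of 0.772 (0.706 to 0.844), while the large subunit group, which holds *Rrp1b*, had 1809 against 1035 CPM. *Ebna1bp2* (0.742), *Nop10* (0.892) and *Pes1* (0.994) were the others.

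Other lists differed there as well. Ribosomal protein genes took 13.3% of the UMIs against 10.1%, and 76 of the 79 were higher. The non-coding host genes of snoRNAs, such as *Gas5*, summed to 2888 against 1857 CPM and *Myc* was at 199 against 135 CPM, while the proliferation list was at 3783 against 4106 CPM. Thymocyte genes were low, with *Cd4* at 87.4 against 328 CPM, *Cd8a* at 271 against 1008 CPM, *Rag1* at 149 against 486 CPM and the 3 CD3 genes at 598 against 1063 CPM. *Notch3*, a receptor of early T cell development, was at 385 against 114.5 CPM, its target *Dtx1* at 137 against 45.3 CPM, the granzyme gene *Gzma* at 472 against 136 CPM and the cell cycle inhibitor *Cdkn2a* at 117 against 40.9 CPM. These single genes were chosen after their values were seen. Low thymocyte genes and high *Gzma* and *Cdkn2a* were not particular to that area. The whole cortex side of KO1134 had 25.8 CPM of *Cd4*, 62.6 CPM of *Cd8a*, 51.1 CPM of *Rag1*, 441 CPM of *Gzma* and 92.4 CPM of *Cdkn2a*. *Notch3* and *Dtx1* were at 149 and 15.8 CPM there, below their levels in the area. The WT cortex side had 256 CPM of *Cd4*, 1976.5 CPM of *Cd8a*, 688 CPM of *Rag1*, 107 CPM of *Gzma*, 0.216 CPM of *Cdkn2a*, 102 CPM of *Notch3* and 10.4 CPM of *Dtx1*. The nuclear retained RNAs *Malat1* and *Neat1* were at 301 CPM, 0.602 times their level on the other cortex side. Cortical epithelial genes, which define the cortex side, were at 4082 against 3587 CPM. Without the area, the thymic T bins of KO1308 had a member ratio to WT of 1.09, and over its tiles the correlation with the ribosomal protein share was -0.182 in place of 0.048.

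**Figure D5:**
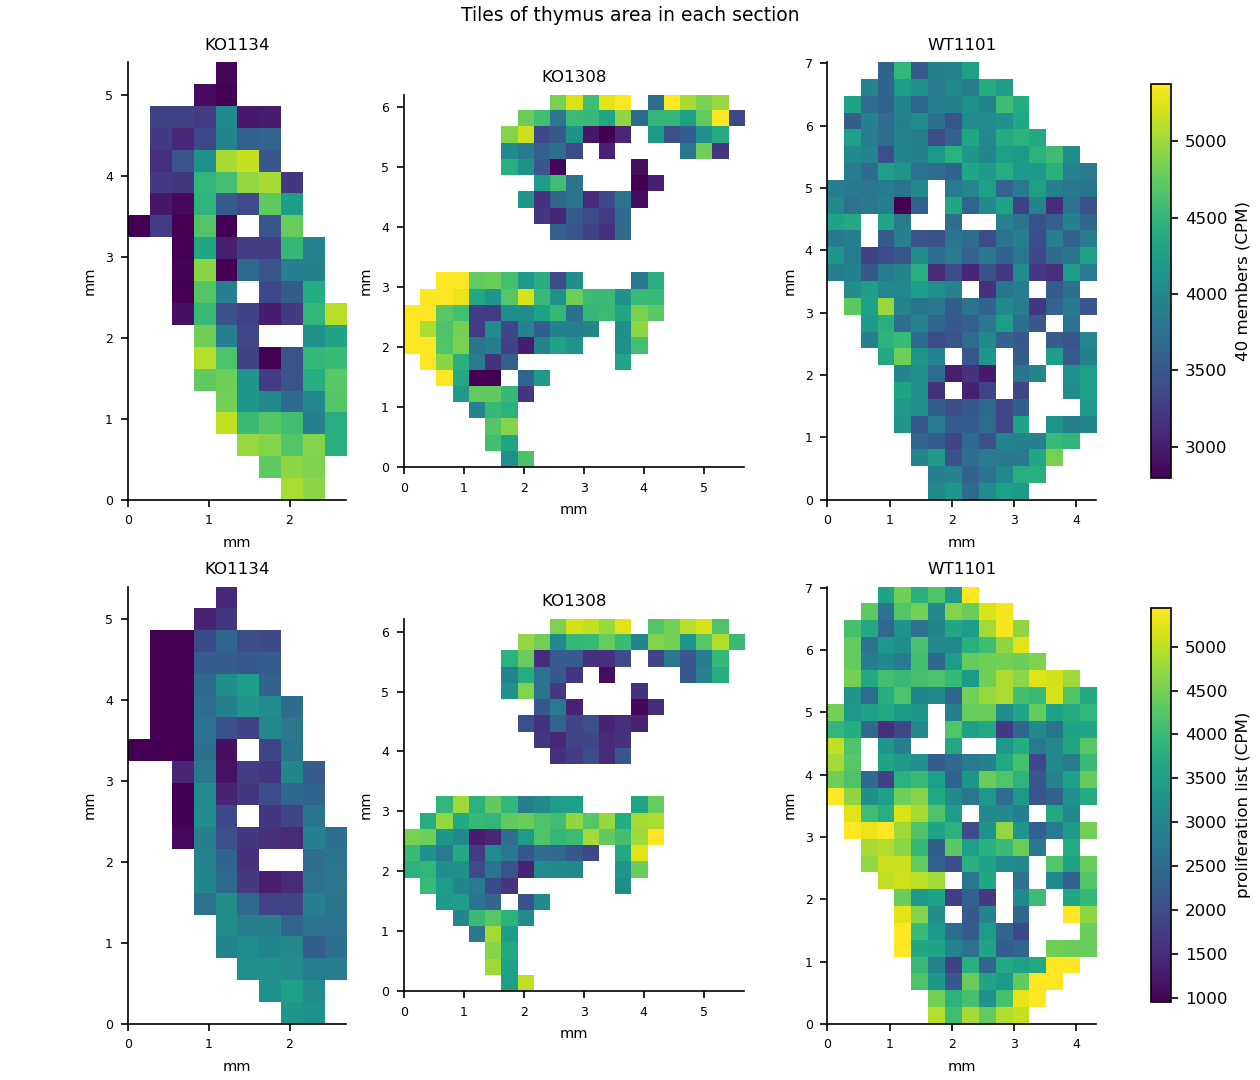
Tiles of thymus area in each section, coloured by the level of the 40 members (upper row) and of the proliferation list (lower row), both in CPM on a colour scale shared by the sections and capped at the 2nd and 98th percentiles of the tiles; axes are in mm and blank tiles hold too few bins. The left end of KO1308 has the highest member levels, up to 6309 CPM, without the highest proliferation levels.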

How the data were processed

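Spatial libraries of 3 thymus sections were made by the authors on barcoded slides, processed with BSTMatrix and STAR against build GRCm38 and deposited as raw UMI counts per gene and spot. The deposited slide coordinates, treated as scores, were converted with the spot spacing of 4.8 µm that the study's methods give. The annotation and use of strand in counting are not given in the sources used here. Tissue was taken as connected groups of at least 200 kept bins, thymus area as bins in whose 7 by 7 surroundings thymus genes took 50% or more of their share in the whole section, and tiles as 10 by 10 bins with at least 30 in thymus area. Counts were summed per section and area. Intervals were exact Poisson (levels) or conditional binomial (ratios) intervals, checked on simulated data. Tests across genes used edgeR 4.0.16 on sums of deposited counts, with Benjamini-Hochberg adjustment and DESeq2 1.42.0 as the alternative (R 4.3.3); other steps used Python 3.11.15. Doublets were not called, since bins hold several cells. Positions and overlaps came from GENCODE M21. Named with values were *Ncl*, *Npm1*, *Fbl*, the extremes of each role group by mean KO ratio, members on opposite sides of WT by 1.2-fold or more, the extremes of the other nucleolar genes, and the genes most alike over tiles; further names were added after values were seen. The members and lists were chosen with earlier results of these data known.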

Additional observations from a re-analysis of the deposited data

Results flagged for a closer look

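The ratio of the KO sections to WT lay on opposite sides of 1 in some pairs of areas for the members and for the other nucleolar genes, and those pairs in which both KO sections lay on the same side within each area are given here. For the 40 members it was 1.03 in KO1134 and 1.10 in KO1308 within the thymus area, and 0.864 and 0.884 outside it. In thymic T bins (0.998 and 1.11) and on the medulla side (0.891 and 1.00) the KO sections did not lie on the same side of WT. For the other nucleolar genes it was 1.02 and 1.02 within the thymus area, and 0.853 and 0.834 outside it. The other nucleolar genes also had 1.07 and 1.05 on the cortex side against 0.935 and 0.972 on the medulla side. None of these differences between areas was tested, and each rests on 1 WT section.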

How the results depend on the processing

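Of 74 recalculations that kept all 3 sections, 68 left the value within its spread or the count within 1.5 times. The spread was the SD over the KO sections, or over the 3 sections for values within a section. It was wide for some results, at 1.47 for the *Myc* ratio and 0.274 for the tile correlation with the ribosomal protein share. A value could move by nearly that much and still be counted among the 68. The member ratio to WT, averaged over the KO sections, was 1.06 and ranged from 0.998 to 1.11, its values with either KO section left out. Leaving out a KO section also gave 1.73 and 3.80 for the *Myc* ratio (2.76), 0.623 and 1.08 for members per ribosomal protein UMI relative to WT (0.851), and 27 and 30 members above WT in place of 22. The 27 were above WT in KO1308 and the 30 in KO1134, where 6110 and 4842 of the 11257 genes tested were. The cortex to medulla ratio of 1.26 was 1.196 to 1.34 with a section left out, the mean tile correlation with proliferation (0.799) was 0.742 to 0.846, and that with the ribosomal protein share (-0.043) was -0.152 to 0.111; the latter was 0.121 with ribosomal protein and mitochondrial genes out of the denominator. With tiles of 5 by 5 bins the correlation with proliferation was 0.673, where each tile holds fewer UMIs. The count of genes called between genotypes, 10 with edgeR, was 0 with library sizes alone, 0 without the filter on low counts, 144 with DESeq2, 4 over all thymus area and 70 over all kept tissue; the cause was not tested. No member was called in any of these fits, and at an unadjusted p under 0.05 they named at most 2, over all thymus area and over all kept tissue, where 9.32% and 13.7% of all genes passed. No paired analysis was possible because the replicate numbers were given in accession order and there is 1 WT section. The alternatives without *Bysl*, with a 2-fold rule for cortex and medulla sides, without the left area of KO1308, and without *Rrp1b* in that area were chosen after seeing the data. Depth limits single members such as *Polr1b* most, whose intervals were wide.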

Other observations

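The RNAs of proteins that are known to pair or compete with MYC at the E-box were also read in the thymic T bins. *Max*, the obligate partner of MYC, had 148 CPM in KO1134, 157 CPM in KO1308 and 214 CPM in WT1101, so both KO sections lay below WT, with ratios of 0.692 and 0.732. The repressive partners of MAX encoded by *Mxd3* (53.6, 95.03 and 137 CPM) and *Mxd4* (62.1, 86.6 and 147 CPM) were below WT in both KO sections as well, as was *Mxi1* (30.9, 50.1 and 64.7 CPM). The relatives *Mycl* and *Mycn* did not pass the filter of 10 CPM. *Mycl* had ratios of 1.97 in KO1134 and 3.78 in KO1308, and *Mycn* 0.517 and 0.502. *Mnt* passed it, with ratios of 0.934 and 0.942 whose counting intervals included 1. Of the 8 listed partners and relatives of MYC that passed, 7 were below WT in both KO sections and *Mga* was split, where 36.1% of all genes tested were below in both. None was called by edgeR's quasi-likelihood test, with adjusted p = 0.897 for *Max*, 0.639 for *Mxd3*, 0.567 for *Mxd4* and 0.756 for *Mxi1*.

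Over tiles, the genes that ran most strongly against the member level were *H2-K1* (mean Spearman -0.743), *Ifi27l2a* (-0.727), *H2-D1* (-0.718), *Tmsb4x* (-0.714) and *Patl2* (-0.702). *H2-K1* and *H2-D1* encode class I histocompatibility antigens, which mature thymocytes and stroma are known to carry. These are descriptions over tiles that share a library.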
